A study of Homo sapiens with 6 samples.

Results

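The NME2 ChIP-seq peaks on chromosomes 17, 19 and 22, small human chromosomes that carry many genes for their length, are described here in A549 cells, a lung adenocarcinoma line. Members were chosen by chromosome name alone. They numbered 177 of the 2541 peaks found before NME2 induction (6.97%) and 707 of the 11545 found after induction (6.12%), together 884 of 14086. Chromosomes 4, 13 and 18, which carry few genes for their length, served for comparison and held 337 peaks before and 1401 after induction.

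The study mapped where NME2 sits on chromatin at its natural level and after the protein was raised. Cells before induction were untransfected per the study's methods, and their chromatin was precipitated with an antibody to NME2 itself (anti-nm23-h2, L-16). Cells after induction carried the plasmid pcDNA3-NME2 with a myc tag and were collected at 48 h, and their chromatin was precipitated with an antibody to the tag (anti-c-Myc). Each condition had 2 NME2 libraries and 1 IgG library, so 6 libraries gave 2 deposited lists of peaks. The labels give the IgG as mouse before and goat after induction. The antibody changed together with the condition and with the source of the protein, endogenous in one list and plasmid-driven in the other. A difference between the lists therefore cannot be told apart from a difference between antibodies.

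NME2, also called nm23-H2, is a nucleoside diphosphate kinase, an enzyme that moves phosphate between nucleotides, and it also binds DNA and regulates transcription of genes such as MYC. It is known as a suppressor of metastasis. Chromosomes 17, 19 and 22 are rich in genes, GC bases and CpG islands, whereas 4, 13 and 18 are poor in them and hold long stretches between genes. The comparison asks whether peak number on these chromosomes went with their length or with their genes.

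The peak lists give hg18 coordinates and no height, score or read count, so no depth stands beside single peaks and no test over samples could be made. Intervals below are 95% intervals for counting error only. They treat peaks as independent, which close neighbours are not, and chromosomes are not replicates of a condition. Density was the number of peaks per Mb of span, the distance between the outermost peaks of the pooled lists on a chromosome. The span was 175.3 Mb for the gene-rich and 363.1 Mb for the gene-poor chromosomes.

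The labels gene-rich and gene-poor were checked against the RefSeq annotation of GRCh38.p14, from which only gene names and promoter sequences were used because its build is not that of the peaks. Chromosome 17 has 1169 protein-coding genes there, chromosome 19 has 1451 and chromosome 22 has 451. The numbers are 770 for chromosome 4, 338 for chromosome 13 and 270 for chromosome 18. The gene-rich trio thus carries 3071 protein-coding genes and the gene-poor trio 1378, on a longer span. Chromosome 4 has more genes than chromosome 22 in number, on a span of 191.0 against 33.9 Mb, so the labels hold relative to length. Median GC content of the promoters of protein-coding genes, read from 250 bases before to 50 after the start, was 63.7% on chromosome 17, 63.3% on 19 and 65.7% on 22. It was 61.0%, 62.3% and 62.7% on chromosomes 4, 13 and 18, so the groups did not overlap but lay close together.

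NME2 peaks were about as dense on the gene-rich as on the gene-poor chromosomes. Before induction the gene-rich chromosomes held 1.01 peaks per Mb (95% interval 0.867 to 1.17) and the gene-poor ones 0.928 (0.832 to 1.03). The ratio was 1.09, with an exact interval of 0.902 to 1.31. After induction the densities were 4.03 (3.74 to 4.34) and 3.86 (3.66 to 4.07) peaks per Mb, a ratio of 1.05 with an exact interval of 0.954 to 1.15. Both intervals include equal density, and they leave room for a modest difference in either direction. Before induction 2 alternatives excluded equal density. The ratio was 1.18 (1.004 to 1.37) against all other autosomes. It was 1.25 (1.02 to 1.52) with each chromosome's longest stretch without a peak, and the bins within 1 Mb of it, left out. Over all chromosomes the density was 0.849 before and 3.86 after induction.

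The 3 gene-rich chromosomes were not alike. Chromosome 17 held 86 peaks before induction, a density of 1.10 per Mb and the 5th highest of 24 chromosomes. It held 334 peaks after, at 4.25 per Mb and rank 6. Chromosome 22 had 38 and 143 peaks, at 1.12 and 4.22 per Mb, with ranks 4 and 8. Chromosome 19, the one with the most genes, had 53 and 230 peaks, and its densities of 0.843 and 3.66 per Mb ranked 14 and 18. It was thus the sparsest of the gene-rich trio in both lists.

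Among the gene-poor chromosomes, chromosome 18 held 1.04 peaks per Mb before and 4.70 after induction, the latter ranking 2 of 24. Chromosome 4 had 0.916 and 3.48 per Mb, and chromosome 13 had 0.864 and 3.96. The densities of the 2 groups overlapped in both lists, and the range within each group was wider than the difference between the groups.

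**Figure D1:**
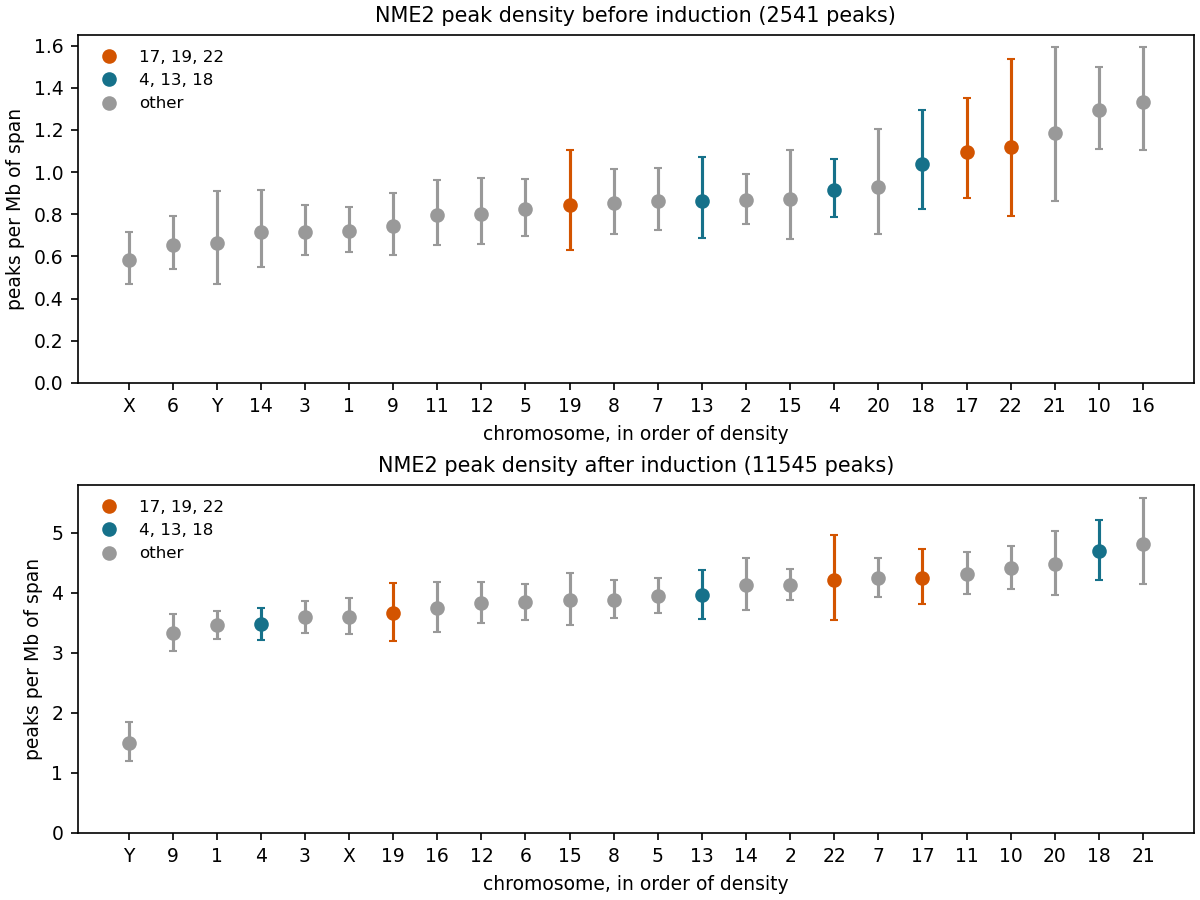
NME2 peaks per Mb of span on each of 24 chromosomes, ordered by density, before (top) and after (bottom) induction. Points are densities, bars exact Poisson 95% intervals, and colours mark the gene-rich trio, the gene-poor trio and the other 18 chromosomes. Gene-rich and gene-poor chromosomes are interspersed in both panels, with chromosome 19 below chromosomes 17 and 22.

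Part of chromosome 19's low density lay in a long stretch with no peak in either list, chr19:23666514-32423860, which spans 8.76 Mb. The matching stretches were 1.66 Mb on chromosome 17 and 1.97 Mb on chromosome 22. Whether reads can be aligned within these stretches was not tested, and the main span counts them in full. With the longest stretch of each chromosome left out of the span, chromosome 19 rose to 0.980 peaks per Mb before and 4.25 after induction. Chromosome 17 then had 1.12 and 4.35, and chromosome 22 had 1.19 and 4.48. The gene-rich to gene-poor ratio after induction became 1.10 (1.01 to 1.21), which just excludes equal density, and that before induction 1.15 (0.952 to 1.38), which does not.

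Counted per gene, the gene-rich chromosomes held 5.76 peaks per 100 protein-coding genes before induction and 23.02 after, against 24.5 and 101.7 on the gene-poor ones. The chromosomes were chosen for how many genes they carry for their length, so with about equal peaks per Mb this choice fixes the separation, and the values are a description only. Before induction they were 3.65 on chromosome 19, 7.36 on chromosome 17 and 8.43 on chromosome 22, and after induction 15.9, 28.6 and 31.7. Likewise chromosome 19, which has the most genes of the 6, had the fewest peaks per gene.

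Across the 21 autosomes whose promoter sequences were used here, peak density before induction was higher where median promoter GC was higher (Pearson's r 0.591, Spearman's rho 0.591). The relation was weaker, at r 0.350 over 19 autosomes, without chromosomes 16 and 22, which lay farthest from the median GC. After induction r was 0.0952 and rho 0.162, and r was 0.182 without the same 2 chromosomes. These are descriptions, and the chromosomes of a list share its libraries.

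More peaks were listed after than before induction, and by a similar factor on both groups of chromosomes. The after to before ratio was 3.99 (3.38 to 4.74) on the gene-rich and 4.16 (3.69 to 4.70) on the gene-poor chromosomes. It was 3.88 on chromosome 17, 4.34 on chromosome 19 and 3.76 on chromosome 22, and it ran from 3.79 to 4.58 on chromosomes 4, 13 and 18. The ratio of the 2 ratios was 0.961, with an interval of 0.784 to 1.18. Over all chromosomes the ratio was 4.54.

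Peaks were short in both lists, and many were at most 29 bp wide. The narrowest peak was 28 bp, and 82 of the 177 gene-rich peaks before induction (46.3%, Wilson interval 39.1 to 53.7) were at most 29 bp wide. After induction 283 of 707 were (40.0%, 36.5 to 43.7). On the gene-poor chromosomes the shares were 49.0% and 43.1%. The differences were -2.63 percentage points (-11.6 to 6.42) before and -3.08 (-7.49 to 1.39) after, so neither exceeded counting error.

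The median width rose from 37 bp before to 90 bp after induction on the gene-rich chromosomes and from 37 to 92 bp on the gene-poor ones. Peaks over 180 bp made up 15.3% of the gene-rich peaks before and 39.2% after. They made up 18.4% and 38.8% of the gene-poor peaks. By these measures the lists differed in the same direction in both groups. The share over 250 bp, a limit chosen after the widths were seen, went from 2.82% to 9.34% on the gene-rich and from 4.45% to 5.28% on the gene-poor chromosomes.

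Within the gene-rich trio, chromosome 19 again stood at one end. Its median width was 29 bp before and 77.5 bp after induction, against 40 and 96 bp on chromosome 17 and 42 and 105 bp on chromosome 22. Peaks of at most 29 bp formed 50.9% (37.9 to 63.9) of its list before, 44.2% (34.2 to 54.7) on chromosome 17 and 44.7% (30.1 to 60.3) on chromosome 22. After induction the shares were 42.2%, 40.1% and 36.4%. The intervals of the 3 chromosomes overlapped in each list.

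The widest peak of chromosome 17 was 324 bp before induction (chr17:73694573-73694896) and 628 bp after (chr17:67811980-67812607). On chromosome 22 these were 311 bp (chr22:47094673-47094983) and 654 bp (chr22:37487463-37488116). On chromosome 19 the widest peak before induction, 259 bp at chr19:32424448-32424706, lay 788.4 kb from the nearest peak of the other list. The widest after induction, 907 bp at chr19:35298686-35299592, was the widest of all 884 members, and a 28 bp peak of the list before induction reached into it by 14 bp. All but that last of the 6 widest peaks lay apart from the other list.

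**Figure D2:**
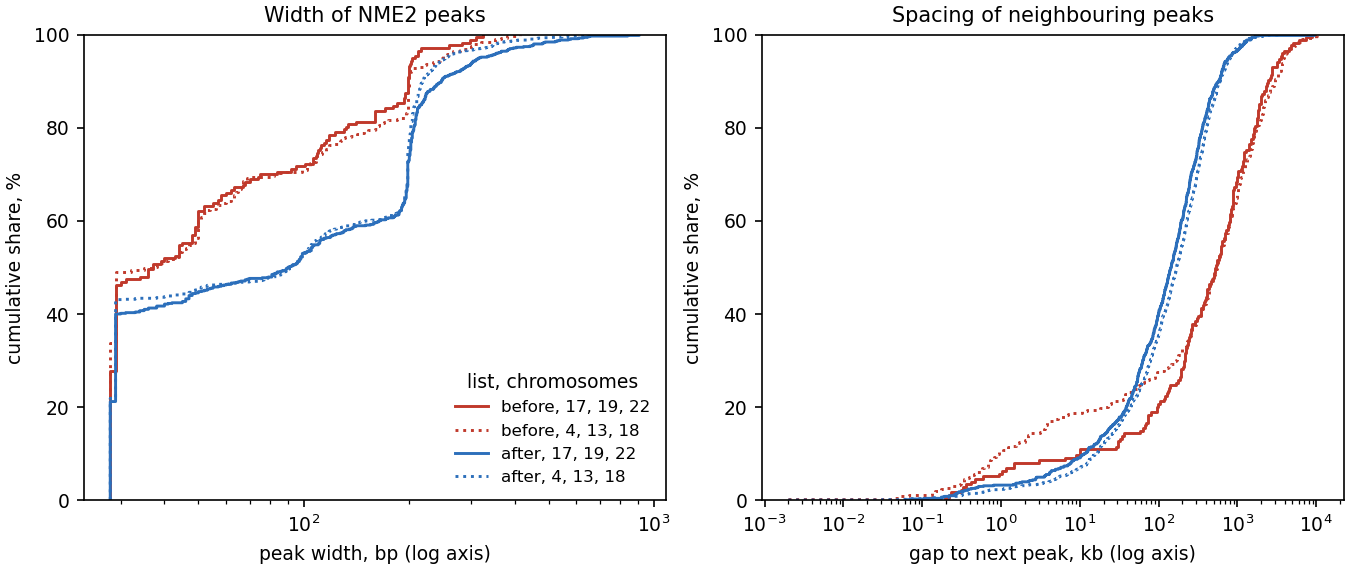
Cumulative share of peaks by width in bp (left) and of neighbouring pairs by the gap between them in kb (right), both on log axes, for the gene-rich (solid) and gene-poor (dotted) chromosomes before and after induction. Width curves of the 2 groups run close together and step up at 28 to 29 bp, and the gap curves part below 10 kb before induction, where the gene-poor chromosomes reach 18.9% and the gene-rich 9.77%.

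The median gap between neighbouring peaks was 528 kb before and 144 kb after induction on the gene-rich chromosomes, and 544 and 170 kb on the gene-poor ones. Very short gaps behaved differently. Before induction 17 of 174 gene-rich gaps were at most 10 kb (9.77%) against 63 of 334 gene-poor gaps (18.9%), a difference of -9.09 points (-14.9 to -2.54). Over all chromosomes 272 of 2517 gaps were that short (10.8%), near the gene-rich share. After induction the order was turned, with 64 of 704 (9.09%) and 96 of 1398 (6.87%), a difference of 2.22 points (-0.170 to 4.87). The share over all chromosomes was then 7.11%, near the gene-poor one. The difference before induction was the only one of the 11 comparisons made between the groups whose interval excluded no difference. Its interval included 0 at gap limits of 1 kb (-4.73 points) and 100 kb (-6.86), and against all other autosomes (-0.920).

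That difference rested on a few places. Chromosome 4 supplied 46 of the 63 short gene-poor gaps, and 44 of those lay within the bins beside its longest stretch without peaks. Without chromosome 4 the difference shrank to -0.855 points (-7.61 to 5.73), and without chromosome 19 it grew to -15.6 points. Chromosome 19 supplied 13 of the 17 short gene-rich gaps, out of 52 gaps in all. Chromosome 17 had 4 of 85 (4.71%) and chromosome 22 had 0 of 37, a count that allows a share of up to 8.11% by the rule of 3 counts and up to 9.41% by the Wilson bound. Away from such bins on all 6 chromosomes the gene-rich chromosomes had 6 short gaps and the gene-poor ones, with more gaps in all, 15. Without those bins the difference in share was -1.47 points (-5.40 to 3.37).

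Of the 13 short gaps of chromosome 19, 11 came from a single run of 12 peaks before induction, chr19:32423861-32432131, packed into 8.27 kb. The run begins at the base after the longest stretch without peaks ends. Its peaks were 28 to 259 bp wide, 7 of the 12 were at most 29 bp, and none overlapped a peak of the other list. The nearest peak after induction was 781.0 kb away, and no peak of that list lay in the same 1 Mb bin.

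The 12 peaks weighed on several values of chromosome 19. Without them it had 41 peaks before induction at 0.652 per Mb, 2 of 40 gaps within 10 kb (5.00%), and 48.8% of peaks at most 29 bp wide. The gene-rich density before induction was then 0.941 per Mb, and 6 of 162 gene-rich gaps were within 10 kb (3.70%). The gene-poor chromosomes held runs too, the largest of 28 peaks on chromosome 4. With peaks within 10 kb of each other counted once in both groups, the density ratio before induction was 1.21 (0.989 to 1.48).

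Other runs of at least 3 peaks at most 10 kb apart were few and small on the gene-rich chromosomes. Before induction there was 1 more, 4 peaks in 4.90 kb at chr17:46599149-46604044. After induction there were 5, of which the largest held 4 peaks in 1.84 kb (chr17:7019106-7020945) and included 1 peak shared with the other list. The remaining 4 held 3 peaks each, 2 on chromosome 17 and 1 each on chromosomes 19 and 22. The tightest spanned 0.733 kb at chr22:38289610-38290342.

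Along the chromosomes the gene-rich peaks were spread widely, with most 1 Mb bins filled after induction. Before induction 84 of their 178 bins held no peak (47.2%) and after induction 18 did (10.1%). The gene-poor chromosomes had 184 and 17 empty bins of 366 (50.3% and 4.64%). Chromosome 19 held 12 of the 18 bins left empty after induction, 10 of them empty in both lists. Of the 94 gene-rich bins with a peak before induction, 91 also held one after (96.8%), against 82.1% of the bins without one. On the gene-poor chromosomes the shares were 97.3% and 93.5%. The bins without a peak before induction held one after in 72.2% of cases on chromosome 19, 87.9% on chromosome 17 and 93.3% on chromosome 22.

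Crowding within bins, as the variance of the counts over their mean, was 1.95 before and 1.76 after induction on the gene-rich chromosomes. It was 4.56 and 1.51 on the gene-poor ones. Before induction it was highest on chromosome 4 (7.13) and chromosome 19 (3.39), followed by chromosome 18 (2.36), while chromosomes 17, 22 and 13 lay between 1.29 and 1.43.

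The densest bins differed between the lists on all 3 gene-rich chromosomes. On chromosome 17 the bin from 46 to 47 Mb was densest before induction with 5 peaks, and the bin from 69 to 70 Mb after with 10. On chromosome 22 these were 34 to 35 Mb with 5 peaks and 36 to 37 Mb with 12. On chromosome 19 the 12 peaks of the run described above made 32 to 33 Mb the densest bin before induction, and 44 to 45 Mb was densest after with 11 peaks. The latter bin held none before. On the gene-poor chromosomes the highest bin was 29 peaks before, on chromosome 4, and 15 after, on chromosome 18.

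The longest stretches empty before induction were filled after it on chromosomes 17 and 22 and nearly empty on chromosome 19. On chromosome 17 the longest, chr17:29529702-36978683, ran for 7.45 Mb and held 36 peaks after induction, or 4.83 per Mb. On chromosome 22 the stretch chr22:23319400-29301391 of 5.98 Mb held 23 peaks (3.84 per Mb). These are near the densities of the whole chromosomes after induction. On chromosome 19 the stretch chr19:23520099-32423860 of 8.90 Mb held 2 (0.225 per Mb).

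**Figure D3:**
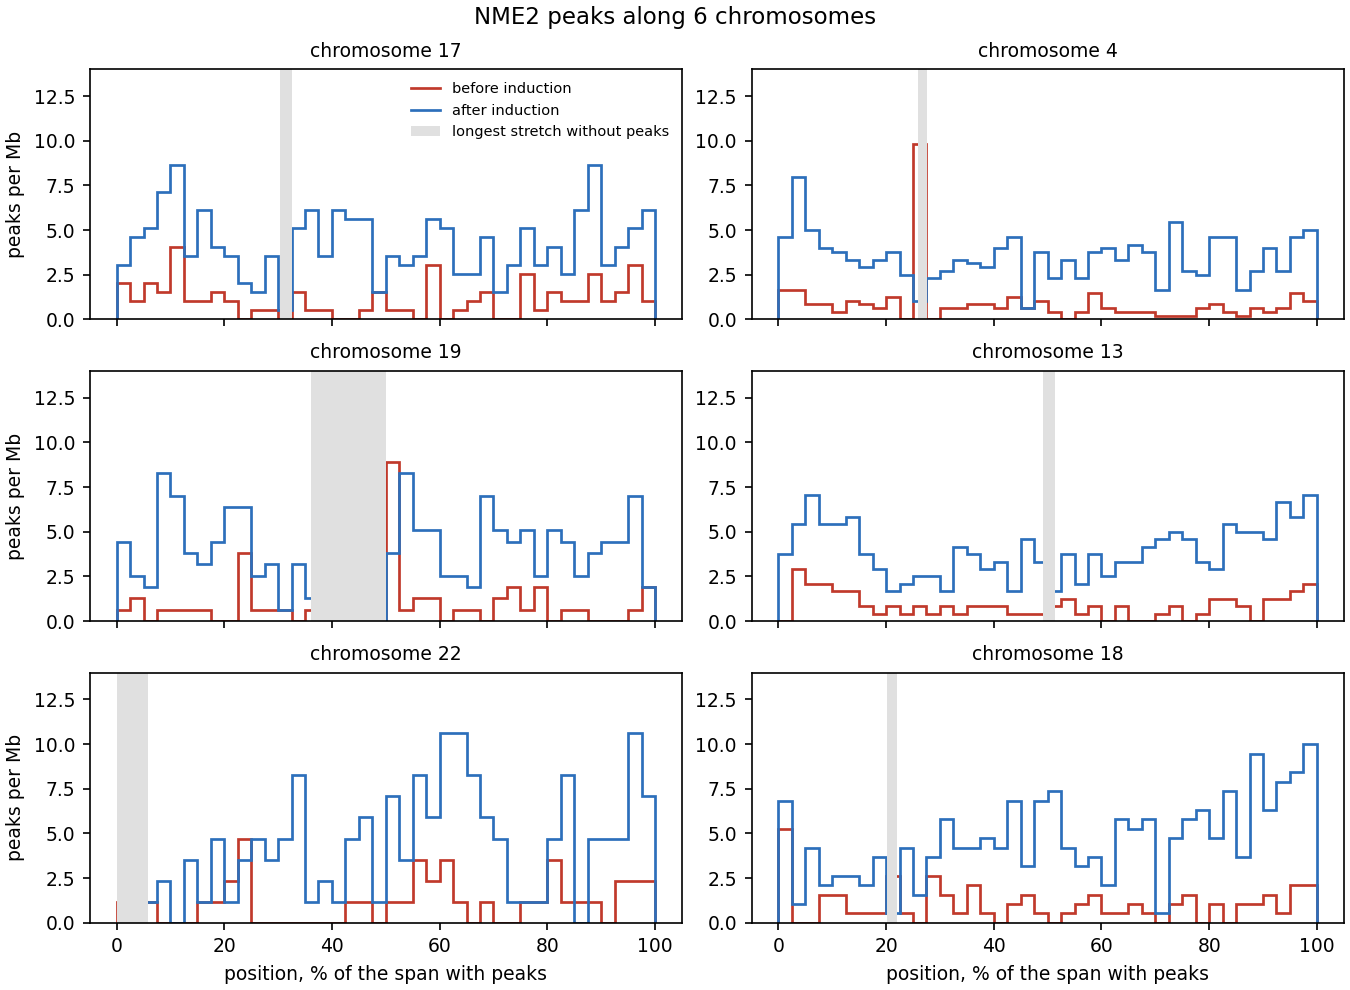
Peaks per Mb in 40 equal parts of each chromosome's span, plotted against position in percent of that span, before (red) and after (blue) induction, with gene-rich chromosomes on the left and gene-poor on the right. The grey band is the longest stretch with no peak in either list, and a spike of peaks before induction stands beside it on chromosomes 19 and 4.

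Shares in the last 10% of the span were similar in the gene-rich and gene-poor groups. In the last 10% of the span lay 23 gene-rich peaks before induction (12.99%, Wilson interval 8.82 to 18.7) and 87 after (12.3%, 10.1 to 14.9). On the gene-poor chromosomes the shares were 13.1% (9.87 to 17.1) and 14.1% (12.4 to 16.1), and on all chromosomes 15.9% and 13.1%. Before induction the intervals of both groups include the 10% of an even spread, and chromosomes 19 (7.55%) and 4 (9.71%) lay below it. After induction the intervals of both groups lay above 10%. Over all chromosomes the interval lay above it in both lists (14.6 to 17.4 before and 12.5 to 13.7 after). The differences between the groups were -0.0620 points (-5.86 to 6.51) and -1.83 points (-4.76 to 1.32). Over the last 5 Mb instead, the gene-rich share was higher, by 5.31 points (0.0908 to 11.4) and 3.04 points (0.530 to 5.80). Such a length is a larger part of the gene-rich span, 175.3 Mb in all against 363.1 Mb. The first 10% of the span held 10.7% (6.98 to 16.2) of the gene-rich peaks before induction and 9.76% (7.78 to 12.2) after. It held 16.0% (12.5 to 20.3) and 12.99% (11.3 to 14.9) of the gene-poor ones, lower shares thus falling to the gene-rich group. These differences were not among the 11 comparisons. On chromosome 22 the first 10% held 5.26% before and 2.10% after induction, and the longest stretch without peaks lies there.

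The outermost peaks show how far the lists reach. On chromosome 17 the first peak was at chr17:95025-95165 before and chr17:9561-9758 after induction, and the last at chr17:77045910-77045953 and chr17:78509908-78510067. On chromosome 19 the first was at chr19:1907163-1907190 and chr19:949825-949947, and the last peaks of the 2 lists, chr19:63789901-63789929 and chr19:63789878-63789915, overlapped. On chromosome 22 the first was at chr22:14857860-14858057 and chr22:16830144-16830344, and the last at chr22:48228593-48228726 and chr22:48771073-48771315. The larger list reached farther at every end except the start of chromosome 22 and the end of chromosome 19.

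Few peaks were found in both lists, and the gene-rich chromosomes were no exception. With an overlap of at least 1 bp, 36 of 177 gene-rich peaks before induction (20.3%, Wilson interval 15.1 to 26.9) met a peak of the other list, against 21.1% of peaks on all chromosomes. Of the 707 after induction 36 did (5.09%, 3.70 to 6.97), against 4.57% on all chromosomes. On the gene-poor chromosomes it was 71 of 337 (21.1%) and 68 of 1401 (4.85%). The differences between the groups were -0.729 points (-7.77 to 6.94) and 0.238 points (-1.63 to 2.37).

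Chromosome 17 had 20 of the 36 shared peaks, 23.3% of its list before and 5.99% of that after induction. Chromosome 22 had 8 (21.1% and 5.59%) and chromosome 19 also 8 (15.1% and 3.48%). Without the run of 12 peaks the share on chromosome 19 before induction was 19.5%. Chromosomes 4, 13 and 18 had 15.4%, 27.7% and 26.6% before induction, so the groups overlapped.

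**Figure D4:**
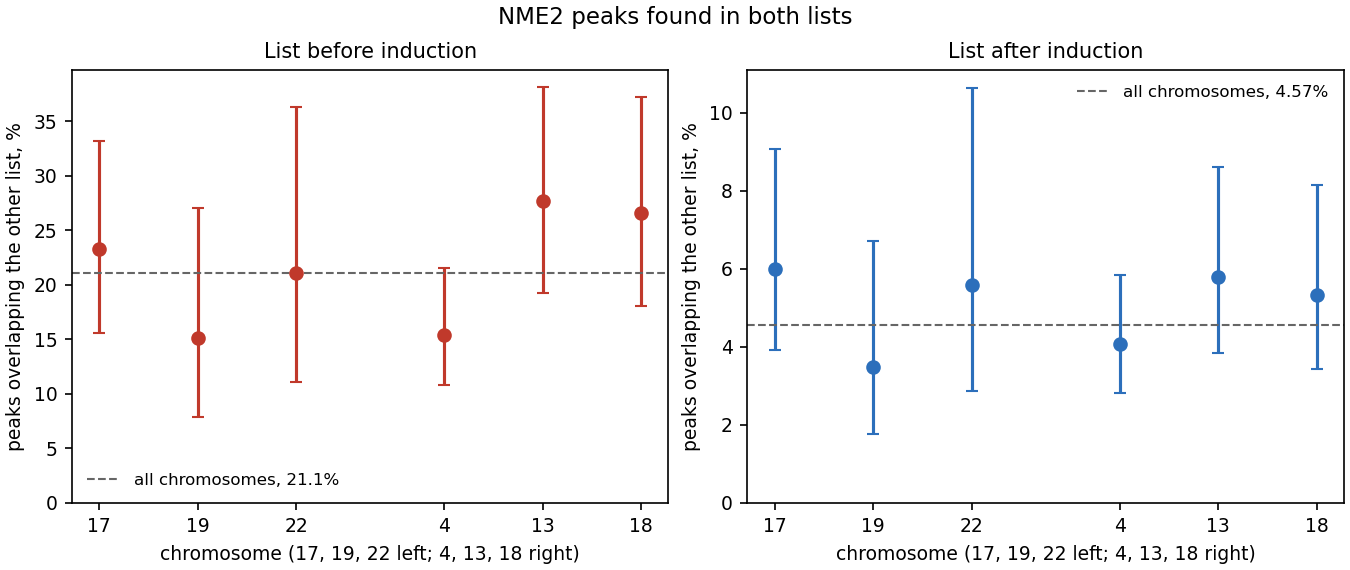
Share of peaks that overlap the other list by at least 1 bp, in percent, on each chromosome in the list before (left) and after (right) induction, with Wilson 95% intervals. The dashed lines are the shares over all chromosomes, 21.1% and 4.57%, and they pass through the interval of every one of the 6 chromosomes.

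The 36 gene-rich pairs overlapped by 14 to 160 bp, with a median of 28 bp. The peak after induction was the wider one in 23 pairs, the peak before in 10, and 3 were equal. In 19 pairs the peak before induction lay wholly inside the other. Shared peaks had a median width of 49 bp before and 167.5 bp after induction, against 36 and 90 bp for the gene-rich peaks that were not shared. The pooled medians do not hold on each chromosome. On chromosome 17, with 20 of the pairs, shared peaks before induction had a median of 32.5 bp against 43.5 bp for the others, and on chromosome 19 shared peaks after induction had 33 against 80 bp. On the gene-poor chromosomes shared peaks had 29 against 37.5 bp before and 105 against 92 bp after induction.

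Of the pairs, 6 began at the same base and 3 had both ends in common. The 3 were each 28 bp wide, at chr17:10780851-10780878, chr17:69637103-69637130 and chr22:43651559-43651586. The longest overlap on chromosome 17 was 160 bp, where chr17:71628934-71629093 before induction lay within chr17:71628806-71629093 after. On chromosome 19 it was 106 bp, chr19:48221164-48221269 within chr19:48221066-48221307. On chromosome 22 it was 65 bp, between chr22:35837473-35837632 and chr22:35837269-35837537.

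Most peaks that were not shared lay more than 1 kb from the other list. Of the 141 unshared gene-rich peaks before induction, 21 lay within 1 kb of a peak after (14.9%, Wilson interval 9.95 to 21.7), against 24 of 266 on the gene-poor chromosomes (9.02%, 6.14 to 13.1) and 10.8% on all chromosomes. Their median distance was 75.01 kb on the gene-rich, 95.5 kb on the gene-poor and 83.6 kb on all chromosomes. By chromosome it was 63.6 kb on 17, 152.6 kb on 19 and 31.4 kb on 22, and it ran from 49.3 to 142.2 kb on the gene-poor chromosomes, so the groups overlapped. Of the 671 unshared gene-rich peaks after induction, 27 lay within 1 kb of a peak before (4.02%, 2.78 to 5.79), against 30 of 1333 on the gene-poor chromosomes (2.25%, 1.58 to 3.19) and 2.40% on all chromosomes (2.13 to 2.70). The gene-rich interval lay above the share over all chromosomes and overlapped that of the gene-poor ones. Overlap of 2 intervals does not settle whether the shares differ, and this difference was not among the 11 comparisons. The single chromosomes had 4.14% on 17, 2.25% on 19 and 6.67% on 22, against 1.57% on 4, 3.35% on 13 and 2.37% on 18, so here too the groups overlapped.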

How the data were processed

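ChIP-seq of NME2 in A549 cells was analysed from 2 deposited peak lists, 1 per condition. Per the labels and methods, the authors clipped the reads, aligned them to hg18 with MAQ and called peaks with CisGenome over the IgG library at a false discovery rate of 10%, with boundary refinement and single-strand filtering. The control is not described alike throughout. The paper names IgG for the peaks, and a supplementary figure plots their enrichment over an input control. How the 2 NME2 libraries of a condition were combined is not given in the sources used here. Boundary refinement acts directly on peak width. The deposited columns are the chromosome, start and end of each peak after a running number. Starts were counted from 0 and are printed from 1.

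Counts, widths, gaps, 1 Mb bins and overlaps of at least 1 bp were computed in Python 3.11.15 with scipy 1.17.1, and overlaps were checked with bedtools 2.31.1. Functions were tested on simulated data. Intervals at 95% are exact Poisson for densities, exact conditional for density ratios, Wilson for shares, Newcombe for differences of shares and Woolf for the ratio of ratios. With 1 list per condition no test over samples exists. Regions named are, for each gene-rich chromosome and list, the widest peak, densest bin, outermost peaks and longest stretch without peaks, plus the longest overlap. The runs of close peaks were named after their values were seen. Members, limits and comparisons were chosen with earlier results of these data known. Peak sequence and gene features were not analysed here.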

Additional observations from a re-analysis of the deposited data

How the results depend on the processing

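For the 11 comparisons 155 alternatives were run. Set against the main setting, 134 were classed as the same, 10 as stronger, 8 as weaker, 1 as moved and 2 as reversed. Before induction the density ratio was 1.25 without each longest stretch and the bins within 1 Mb of it. It was 1.18 against all other autosomes, and both intervals then excluded equal density. After induction it was 1.10 with the longest stretches left out of the span, and both this interval and the next excluded equal density. With the bins within 1 Mb of the stretches left out as well it was 1.11 (1.01 to 1.22), so the 2 settings are not separate checks. Leaving out 1 chromosome gave 0.942 (without chromosome 4) to 1.11 (without chromosome 18), the latter with an interval of 1.01 to 1.22. The difference in gaps within 10 kb before induction was -4.73 points at 1 kb, -6.86 at 100 kb, -1.47 without the bins beside the stretches, -4.34 in the lower-numbered 50% of each list and -0.920 against all other autosomes, each with an interval that included 0. Leaving out 1 chromosome gave -15.6 (without 19) to -0.855 (without 4), and the interval also included 0 without 17 (-4.26) or 22 (-6.45). After induction it was 4.86 at 100 kb and 2.09 against all other autosomes, and 1.61 to 3.04 with 1 chromosome left out. Its interval excluded 0 in the first 2 of these and without chromosome 18 (3.04) or 22 (2.74). The share at chromosome ends turned when the last 5 Mb replaced the last 10% of the span. A stretch of 5 Mb is a larger part of a short chromosome, and whether this accounts for the turn was not tested. The difference became 5.31 points before and 3.04 after, and both intervals excluded 0. The difference in the last 10% after induction ran from -3.98 (without 4, an interval of -7.58 to -0.357 that excludes 0) to -0.460 (without 17). The cause of the other changes was not tested either.

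The NME2 libraries cannot be matched by number, and no paired analysis was possible because a condition is represented by a single list without values for its libraries. Without peak heights, a weak and a strong peak count alike, and the lists hold no read counts. With 177 gene-rich peaks before induction the intervals are wide.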

Other observations

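Peaks wider than 250 bp were more frequent on the gene-rich than on the gene-poor chromosomes after induction. This was noticed in the width curves, and the limit of 250 bp was chosen after they were seen, so the intervals describe the difference and do not test it. After induction 66 of 707 gene-rich peaks were wider than 250 bp (9.34%, Wilson interval 7.41 to 11.7), against 74 of 1401 gene-poor peaks (5.28%, 4.23 to 6.58) and 6.55% on all chromosomes. The difference was 4.05 percentage points (1.73 to 6.65). The 2 trios did not overlap, with 8.68% on chromosome 17, 9.13% on 19 and 11.2% on 22 against 3.46%, 6.58% and 7.28% on 4, 13 and 18. Chromosomes 22, 19 and 17 ranked 3, 6 and 7 of 24, behind chromosome 21 (15.6%) and chromosome 20 (11.8%). Chromosome 16 (9.94%) and chromosome 10 (9.56%) also ranked above chromosomes 19 and 17. The difference was 4.72 points at a limit of 220 bp, 2.94 at 300 bp and 1.54 at 400 bp. At the limit of 180 bp used above the shares were alike, 39.2% on the gene-rich and 38.8% on the gene-poor chromosomes. Against all other autosomes it was 2.79 points (0.799 to 5.21). Leaving out 1 chromosome gave 2.42 to 4.74 points, and without chromosome 4 the interval included 0 (-0.411 to 5.28).

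Before induction 5 of 177 gene-rich peaks (2.82%) and 15 of 337 gene-poor peaks (4.45%) were wider than 250 bp, a difference of -1.63 points (-4.82 to 2.39). Whether the difference between the groups itself differed between the lists was not tested.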
